A study of Mus musculus with 24 samples.

Results

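The genes described are Socs1, Socs2, Socs3, Socs4, Socs5, Socs6, Socs7 and Cish, the suppressor of cytokine signalling (SOCS) family. Their symbols picked 8 of the 39017 mouse genes in the deposited count table, and all 8 had enough reads in enough libraries to be tested among 18093 genes. The study sequenced RNA of dendritic cells, the antigen-presenting cells of the immune system, sorted by flow cytometry from mouse spleen. Flt3 ITD/+ mice, called ITD here, carry an internal tandem duplication in 1 copy of Flt3, whose product is the receptor through which Flt3 ligand sustains dendritic cells. Flt3 +/+ mice are called WT. Both genotypes were C57BL/6 x FVB/N F1 animals, and ages and any pooling of animals were not stated in the labels. Of the 5 subsets sorted, 1 was PDC. A pair of CD8+ subsets was canonical (C_CD8) or non-canonical (NC_CD8), and a pair of CD11b+ subsets was high (Esamhi) or low (Esamlo) for Esam. The experiment batches A and B hold PDC, batches B, C and D hold both CD8+ subsets, and batches C and D hold both CD11b+ subsets. Each batch has 1 ITD and 1 WT library of each of its subsets, so there are 12 ITD and 12 WT libraries in 12 pairs.

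SOCS proteins restrain cytokine receptors. A receptor-bound Janus kinase (JAK) phosphorylates STAT transcription factors, and these switch on, among other genes, Cish, Socs1, Socs2 and Socs3, whose products act back on the receptor and its kinase. Each family member has an SH2 domain that binds phosphotyrosine and a SOCS box that recruits elongins and a cullin, which mark bound proteins with ubiquitin. The duplication in FLT3 makes the receptor signal without its ligand, and in leukemic cells it is known to activate STAT5, a factor that induces Socs2 and Cish.

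The libraries held 11197145 to 22248404 counts, and levels are given as CPM, the count scaled to the library size after trimmed-mean (TMM) scaling. The summed level of 10 PDC markers was 11800 to 12800 CPM in PDC libraries and at most 1550 CPM in the others. The sum of 10 markers of type 1 conventional dendritic cells (cDC1) was 6070 to 12200 CPM in C_CD8 libraries, 4410 to 7070 CPM in PDC and at most 2670 CPM elsewhere. The sum of 10 cDC2 markers was 2450 to 2990 CPM in both CD11b+ subsets. It was 1890 to 2300 CPM in PDC, 1410 to 2080 CPM in NC_CD8 cells and 77.0 to 252 CPM in C_CD8 cells. Flt3 itself was lower in ITD in 12 of 12 pairs, with a mean log2 fold change over the subsets of -0.30 ± 0.06 (SE). Its edgeR adjusted p was 0.0504, and 0.00139 when the pair was a term of the model. In such bulk samples, fewer cells of a type and less RNA per cell cannot be told apart.

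Socs2 encodes an inhibitor best known for limiting growth hormone signalling, and it had the largest differences between genotypes in the family. The gene lies on chromosome 10 (GRCm38, 95385362 to 95417180, minus strand). In PDC it stood at 76.5 and 40.8 CPM in the ITD libraries of batches A and B, against 1.11 and 1.48 CPM in the WT libraries. Those WT values rest on 25 and 30 reads, and the ITD values on 1517 and 762 reads. Both ITD libraries lay far above both WT libraries.

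In NC_CD8 cells Socs2 was at 22.4, 25.7 and 34.2 CPM in the ITD libraries of batches B, C and D, against 1.93, 4.97 and 3.76 CPM in the WT libraries. The groups did not overlap. Here and below, the share of all genes without overlap was not counted. Groups of 2 or 3 libraries can also separate where genotypes do not differ. In C_CD8 cells it was at 36.6, 33.7 and 46.3 CPM in ITD and at 26.4, 15.9 and 27.3 CPM in WT, also without overlap but closer together. In Esamlo cells the ITD libraries of batches C and D held 13.9 and 25.6 CPM, against 3.63 and 6.75 CPM in WT. In Esamhi cells, with 30.7 and 66.1 CPM in ITD and 18.3 and 35.6 CPM in WT, the groups overlapped, while within each batch the ITD library was higher. In all 12 pairs, then, the ITD library held more Socs2 than its WT partner, as the plot of Socs2 by library shows.

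**Figure D1:**
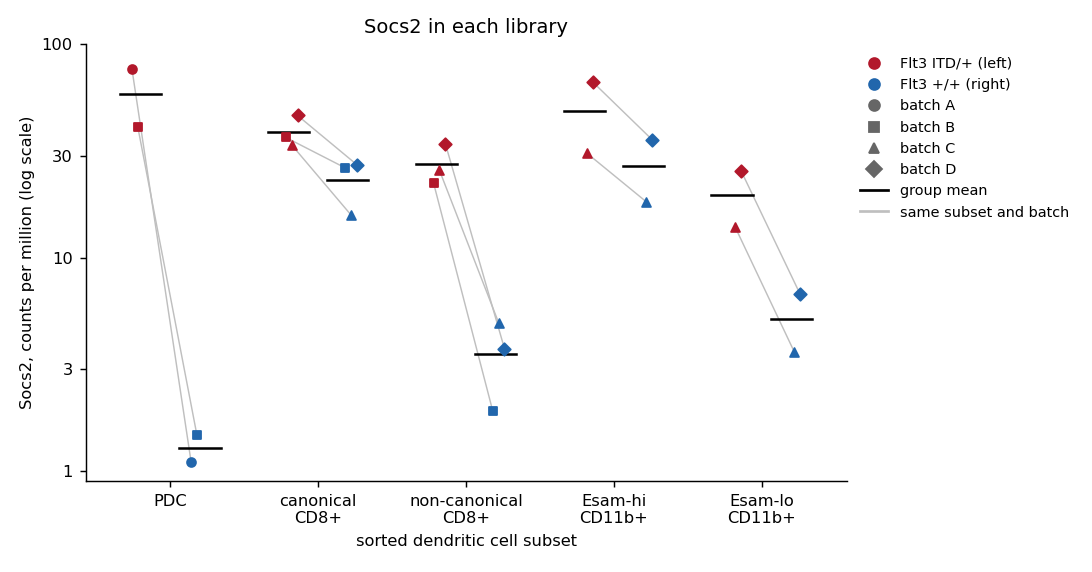
Socs2 level (CPM, log scale) in each of the 24 libraries by subset, Flt3 ITD/+ left and Flt3 +/+ right. Grey lines join libraries of the same subset and batch, black bars are group means. ITD group means run from 19.7 to 58.6 CPM and WT group means from 1.29 to 26.9 CPM, and every ITD library stands above its WT partner.

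The size of the ITD difference in Socs2 differed between subsets. With edgeR's quasi-likelihood test and Benjamini-Hochberg adjustment over all genes (called under 0.05), the log2 fold change was 5.50 ± 0.59 in PDC (SE, adjusted p = 0.000305), a 45.2-fold difference. In NC_CD8 cells it was 2.95 ± 0.42 (adjusted p = 0.0065), a 7.72-fold difference. Fitted to the libraries of a single subset, with fewer libraries to estimate the spread, the values were 5.49 in PDC and 2.93 in NC_CD8 cells and were not called (adjusted p = 1 and 0.112). The values in Esamlo (1.93 ± 0.50), Esamhi (0.85 ± 0.47) and C_CD8 cells (0.75 ± 0.38) were not called, each with adjusted p = 1. With the pair as a term, Esamlo was called as well (1.93 ± 0.28, adjusted p = 0.0453), while C_CD8 (0.77 ± 0.20, adjusted p = 0.108) and Esamhi (0.82 ± 0.24, adjusted p = 0.486) were not.

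Few genes at all were called in these comparisons. The share of the 18093 genes called in either direction was 0.0608% in PDC, 0.0166% in C_CD8, 0.31% in NC_CD8, 0% in Esamhi and 0.00553% in Esamlo cells. With the pair term it was 0.249%, 1.23%, 4.79%, 0.0497% and 0.0497%, in the same order of subsets. Socs2 was the 1 member called in PDC and the 1 member called in NC_CD8 cells without the pair term. In Esamhi cells edgeR called 0 genes, with 303 at an unadjusted p below 0.05 and 2 called by DESeq2, and no member was among either.

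The differences between subsets were themselves tested. The ITD effect on Socs2 in PDC exceeded the mean of the other 4 subsets by 3.88 ± 0.59 on the log2 scale (adjusted p = 0.0219), in a comparison that called 0.0332% of genes. Its value was 3.83 ± 0.34 (adjusted p = 0.002) with the pair term, where 0.105% of genes were called. The call without the pair term was lost when the WT library of batch A (log2 3.69, adjusted p = 0.224), the WT library of batch B (4.09, adjusted p = 0.159) or the ITD library of batch A (3.36, adjusted p = 0.19) of PDC was left out, which leaves 1 library in that group. An F test for any difference of the ITD effect among the 5 subsets gave an adjusted p of 0.0749 for Socs2 and called 0% of genes. With 410 genes at an unadjusted p below 0.05, it still placed Socs2 as the 1 member below that value. Socs2 was called when the WT library of NC_CD8 in batch D (adjusted p = 0.0409), the ITD library of Esamhi in batch D (0.0432) or the WT library of Esamlo in batch C (0.0465) was left out. With the pair term the adjusted p was 0.00162 and 0.304% of genes were called, and DESeq2, which called 54 genes, also called Socs2.

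Between the CD8+ subsets, the ITD effect in NC_CD8 exceeded that in C_CD8 cells by 2.20 ± 0.56, which was not called (adjusted p = 0.475, with 0.00553% of genes called). With the pair term it was 2.21 ± 0.31 and was called (adjusted p = 0.0095, with 0.647% of genes called). Between the CD11b+ subsets, the Esamhi effect minus the Esamlo effect was -1.08 ± 0.68 (adjusted p = 1). No gene was called in that comparison by edgeR without the pair term (0%), with it (0%) or by DESeq2, while 267 genes had an unadjusted p below 0.05.

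Averaged over the 5 subsets with equal weights, the log2 fold change of Socs2 was 2.39 ± 0.21 (adjusted p = 1.45e-05). Among all genes, 0.332% were called higher and 0.0276% lower in this average, and 4.49% and 2.34% with the pair term. Of the 8 members, 1 was called higher and 0 lower with either fit. The differences within pairs ran from 0.47, in C_CD8 of batch B, to 5.97, in PDC of batch A. Such a run of 12 of 12 pairs in the ITD direction was shared by 197 genes, 1.09% of those tested.

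The PDC and NC_CD8 subsets, with the largest ITD differences on the log2 scale, were those in which WT cells held least Socs2. The WT level is the denominator of these ratios, so the 2 observations are not independent. In WT the order of group means was Esamhi (26.9 ± 12.3 CPM, SD, n = 2), C_CD8 (23.2 ± 6.33, n = 3), Esamlo (5.19 ± 2.21, n = 2), NC_CD8 (3.55 ± 1.53, n = 3) and PDC (1.29 ± 0.26, n = 2). Among neighbours in this order, Esamhi and C_CD8 (adjusted p = 0.766) and Esamlo and NC_CD8 (adjusted p = 0.624) were not called apart. C_CD8 over Esamlo (adjusted p = 0.00446) and NC_CD8 over PDC (log2 1.45 ± 0.52, adjusted p = 0.0462) were. In ITD the order was PDC (58.6 ± 25.2 CPM, n = 2), Esamhi (48.4 ± 25.0, n = 2), C_CD8 (38.9 ± 6.60, n = 3), NC_CD8 (27.4 ± 6.09, n = 3) and Esamlo (19.7 ± 8.22, n = 2), and no neighbours were called apart. PDC thus stood highest of 5 in ITD and lowest of 5 in WT. PDC shares only batch B with the CD8+ subsets and no batch with the CD11b+ subsets. Its ITD library held 76.5 CPM in batch A and 40.8 CPM in batch B, the latter below the Esamhi mean. In batch B, C_CD8 held 36.6 CPM and NC_CD8 22.4 CPM in ITD. The WT libraries of that batch held 1.48 CPM in PDC, 26.4 in C_CD8 and 1.93 in NC_CD8. The ratio of the highest to the lowest group mean was 2.97 in ITD and 20.8 in WT.

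An F test over the 5 subsets called Socs2 in WT (adjusted p = 2.84e-06), where 46.7% of all genes were called. It did not call Socs2 in ITD (adjusted p = 0.0517, and 0.0279 to 0.161 with 1 library left out), where 44.7% of genes were. With the batch as a term the adjusted p was 2.44e-07 in WT and 0.0116 in ITD, with 64.1% and 62.4% of genes called. Of the 10 pairs of subsets, 1 was called for Socs2 in ITD (PDC above Esamlo, which share no batch) and 8 in WT. With the batch term these counts were 3 and 8. Over all genes and all 10 pairs, 19.1% of tests were called in ITD and 20.1% in WT, and 31.5% and 32.8% with the batch term.

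Markers of other cells moved with genotype in NC_CD8 cells, where Socs2 differed. All 10 cDC1 markers were lower there in ITD (median log2 -1.31, 2 called, and 7 with the pair term), with a sum of 1100 to 1150 CPM in ITD and 1480 to 2670 CPM in WT. The sum of 10 NK cell markers was 84.0 to 107 CPM in ITD and 136 to 213 CPM in WT (10 of 10 lower, 4 called with the pair term). The sum of 10 T cell markers was 22.6 to 35.1 CPM in ITD and 45.7 to 152 CPM in WT (10 of 10 lower, 6 called with the pair term). Of 12 macrophage and monocyte markers 9 were lower, 5 called with the pair term, with a sum of 522 to 731 CPM in ITD and 411 to 1240 CPM in WT. Of 10 erythroid markers 10 were lower, 4 called with the pair term, with a sum of 8.45 to 51.2 CPM in ITD and 7.03 to 386 CPM in WT. Of 10 B cell markers 8 were lower, 1 called and 2 with the pair term, with a sum of 65.2 to 109 CPM in ITD and 83.7 to 133 CPM in WT. Of 9 tested neutrophil markers 2 were above 0 (median log2 -0.331), and 5 with the pair term. Of 10 plasma cell markers 4 were above 0 (median log2 -0.203). No gene of these lists was called with or without the pair term. The cDC2 and PDC lists did not move down as a whole. Of 10 cDC2 markers 7 were higher, and with the pair term 2 were called higher and 1 lower. Their sum was 1720 to 2080 CPM in ITD and 1410 to 1750 CPM in WT. Of 10 PDC markers, 2 were called higher and 2 lower with the pair term. In PDC no gene of the marker lists was called with or without the pair term. The sums of cDC2 markers (2240 to 2300 CPM in ITD, 1890 to 2000 CPM in WT) and of B cell markers (204 to 206 CPM in ITD, 216 to 227 CPM in WT) did not overlap there. Those of the cDC1, NK and T cell markers overlapped, with 4430 to 7070 CPM in ITD and 4410 to 6750 CPM in WT for cDC1 markers, and 12.2 to 25.2 CPM in ITD and 15.6 to 21.2 CPM in WT for NK cell markers, and 60.7 to 76.0 CPM in ITD and 74.9 to 97.5 CPM in WT for T cell markers. None of these marker genes was without reads over all libraries. Their part in the Socs2 result was not tested.

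A stretch of Socs2 recurs elsewhere in the genome. Gm9847, annotated as a processed pseudogene on chromosome 12 (GRCm38, 14494561 to 14495159, plus strand), shares 400 of its 550 50-base words with Socs2 transcripts (72.7%). In each library it was listed at 21.8% to 50% of the Socs2 count, with a median of 32.2%. Across the 24 libraries its log2 CPM had a Pearson r of 0.99 with that of Socs2, the highest of any gene. Reads from the shared stretch cannot be assigned to 1 of the 2 genes, so the split between them is uncertain.

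**Figure D2:**
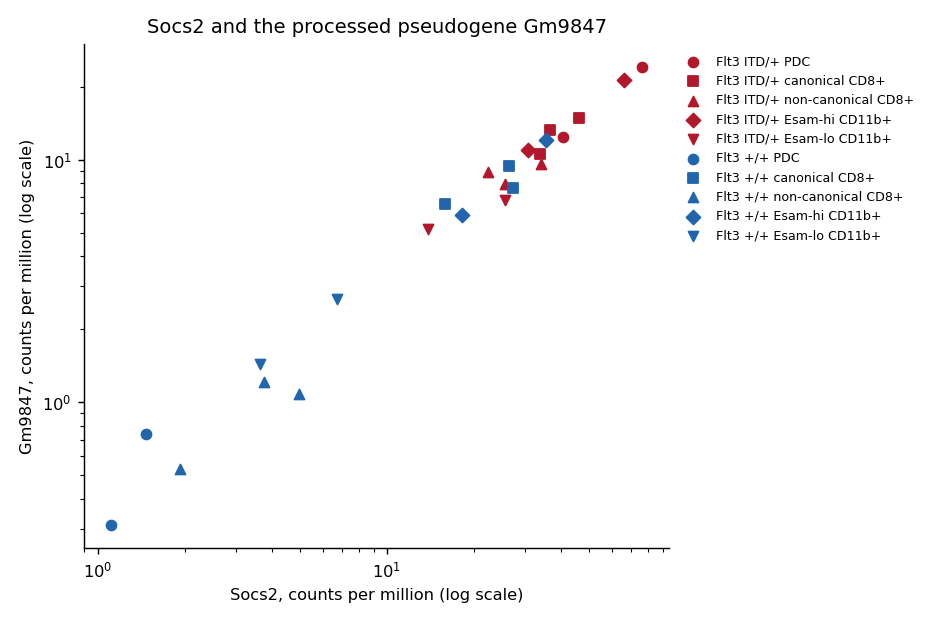
Level of the processed pseudogene Gm9847 (vertical axis) against Socs2 (horizontal axis) in each of the 24 libraries, both in CPM on log scales. Red is Flt3 ITD/+, blue is Flt3 +/+, and shapes are subsets. The points lie along 1 line, at a median Gm9847 count of 32.2% of the Socs2 count.

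With the reads of Socs2 and Gm9847 summed, an alternative added after seeing the data, the log2 fold changes were 5.40 in PDC (adjusted p = 0.000353), 3.01 in NC_CD8 cells (adjusted p = 0.00789) and 2.37 on average (adjusted p = 1.94e-05). The difference between PDC and the other subsets was 3.80 (adjusted p = 0.0216). The F test over ITD subsets then called Socs2 (adjusted p = 0.0413), and NC_CD8 over PDC in WT was no longer called (adjusted p = 0.0593).

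Cish, the founding member of the family, is another known STAT5 target, and it was the scarcest member. It had 2 to 120 reads per library and a mean of 0.341 CPM per kb of exon, against 43.2 CPM per kb for Socs3, the most abundant per length. Other genes hold 9.35% of its 50-base words on either strand, mostly Gm17041 (5.89%) and Gm17040 (3.26%), which lie on the opposite strand of the Cish locus. The antisense Gm17040 and Gm17041 overlap 4.07% and 7.46% of its exonic bases, had 11 and 0 reads, and cannot be told apart from it if the libraries were counted without strand.

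Cish lies on chromosome 9 (GRCm38, 107296026 to 107302784, plus strand). In NC_CD8 cells it was at 7.40, 3.18 and 4.24 CPM in the ITD libraries of batches B, C and D, against 2.65, 1.03 and 2.28 CPM in WT. The groups did not overlap, but the log2 fold change of 1.31 ± 0.62 was not called (adjusted p = 0.672, and 0.142 with the pair term). The ITD library was higher in 11 of 12 pairs, which 662 genes (3.66%) matched or exceeded. The exception was C_CD8 of batch C, at 0.628 CPM in ITD and 1.34 CPM in WT. The largest difference of a pair, 2.62 in Esamhi of batch D, rests on 22 reads in ITD and 2 reads in WT. On average over subsets the log2 fold change was 0.65 ± 0.32 (adjusted p = 0.599, and 0.15 with the pair term). Between subsets, the F test gave an adjusted p of 0.143 in ITD and 0.305 in WT. With the batch term Cish was called in ITD (adjusted p = 0.0408), as were 62.4% of all genes, and not in WT (adjusted p = 0.183). NC_CD8 then stood above C_CD8 cells in ITD by a log2 of 1.38 ± 0.49 (adjusted p = 0.0319).

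**Figure D3:**
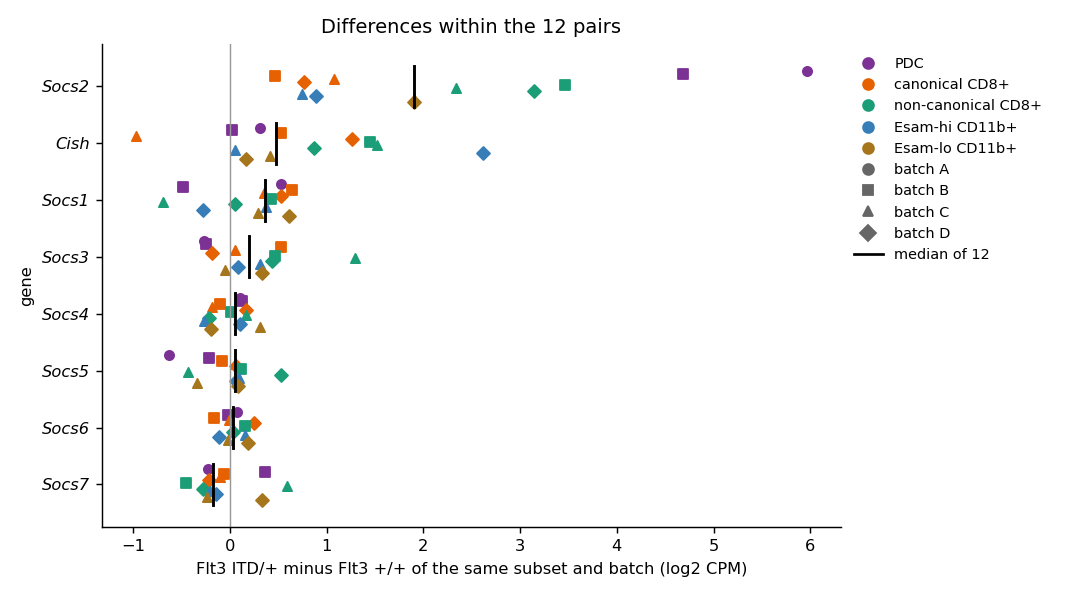
Difference of log2 CPM (Flt3 ITD/+ minus Flt3 +/+, horizontal axis) within each of the 12 pairs of libraries of the same subset and batch, for each gene (vertical axis). Colours are subsets, shapes are batches, black bars are medians. Socs2 lies above 0 in 12 of 12 pairs and Cish in 11 of 12, while Socs4, Socs5 and Socs6 have medians of 0.05, 0.05 and 0.03.

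The STAT-type motif TTCNNNGAA, which reads the same on both strands, was searched in the promoter windows of RefSeq (GRCm38.p6, 250 bases before to 50 after the start), which hold 4 members. Of 32851 windows, 8.3% hold the motif and 0.457% hold it at least 2 times. Cish has it 2 times, beginning at bases 1 and 12 when the start base is counted as base 1. Socs3 has it 1 time, 154 bases before the start. Socs1 and Socs4 do not have these letters in their windows. The 30 bases around the matches are shown because both genes are known STAT targets, with the motif in capitals, 5′ to 3′.
Cish, chr9:107296654-107296683, plus strand: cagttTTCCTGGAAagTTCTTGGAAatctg
Socs3, chr11:117969502-117969531, minus strand: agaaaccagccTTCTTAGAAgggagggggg
All 30 of these bases of Cish lie in annotated exons, and none of those of Socs3. A match describes the letters only.

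Socs1 and Socs3 encode the members that, besides binding receptors, block the kinase itself with a short inhibitory region, Socs1 chiefly downstream of interferons and Socs3 downstream of the IL-6 receptor family. Socs3 (chromosome 11, GRCm38, 117966079 to 117970047, minus strand) ranged widely between batches in the CD8+ subsets. In NC_CD8 cells it was at 668.5 CPM in batch B, 172 in batch C and 184 in batch D in ITD, against 485, 69.9 and 136 CPM in WT. In C_CD8 cells the values were 187, 21.3 and 38.4 CPM in ITD and 129, 20.5 and 43.6 CPM in WT, in the same order of batches. Batch B was the highest in both subsets and both genotypes.

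In PDC, Socs3 was at 94.9 and 41.7 CPM in ITD and at 114 and 49.6 CPM in WT, so that there batch B was the lower of batches A and B. In Esamhi cells of batches C and D it was at 37.5 and 40.6 CPM in ITD and 30.2 and 38.3 CPM in WT. In Esamlo cells it was at 86.9 and 123 CPM in ITD and 90.2 and 97.6 CPM in WT. The genotypes overlapped in each of the 5 subsets.

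Between genotypes, Socs3 was higher in ITD in 8 of 12 pairs and was not called on average (log2 0.20 ± 0.41, adjusted p = 0.982, and 0.221 with the pair term). In NC_CD8 cells it was higher in ITD in 3 of 3 batches. The log2 fold change there was 0.57 ± 0.81 (adjusted p = 0.973), and 0.73 ± 0.16 with the pair term, which called it (adjusted p = 0.0254). Without the pair term and without the ITD library of batch B the value turned to -0.38. The summed level of 17 early response and handling genes, which can rise while cells are prepared, was 24850 to 29110 CPM in NC_CD8 ITD libraries and 19660 to 23450 CPM in WT. Its part in this result was not tested.

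Between subsets, the batch term decided the calls of Socs3. Without it, the F test gave an adjusted p of 0.0462 in ITD (0.00729 to 0.348 with 1 library left out) and 0.118 in WT, and 0 of 10 pairs of subsets were called in either genotype. With it, the values were 1.28e-08 and 1.28e-07, and 9 pairs were called in ITD and 8 in WT. With that term the F test called 62.4% of all genes in ITD and 64.1% in WT. Over all genes and pairs, 31.5% and 32.8% of tests were called. Within batches B, C and D, Socs3 was higher in NC_CD8 than in C_CD8 cells by 1.84, 3.01 and 2.25 on the log2 scale in ITD and by 1.90, 1.76 and 1.64 in WT. In batch B, which alone holds both, NC_CD8 stood above PDC by 4.0 in ITD and 3.29 in WT. Esamlo cells exceeded Esamhi cells by 1.21 and 1.59 in ITD and by 1.58 and 1.35 in WT.

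Socs1 (chromosome 16, GRCm38, 10782240 to 10785536, minus strand) was at 22.2, 17.3 and 20.4 CPM in ITD C_CD8 cells of batches B, C and D and at 14.2, 13.5 and 14.1 CPM in WT C_CD8 cells, without overlap. In Esamlo cells it was at 10.5 and 13.6 CPM in ITD and 8.51 and 8.86 CPM in WT, also without overlap. How many of all genes separate in this way was not counted. Neither difference was called (log2 0.52 ± 0.44 and 0.47 ± 0.54, adjusted p = 1 for both, and 0.392 and 0.536 with the pair term). In the other 3 subsets the groups overlapped, and ITD was higher in 9 of 12 pairs. On average the log2 fold change was 0.25 ± 0.22 (adjusted p = 0.857). Among ITD subsets, Socs1 was called with the batch term (adjusted p = 0.0292), as were 62.4% of all genes. C_CD8 then stood above PDC (log2 1.39 ± 0.46) and above NC_CD8 cells by 1.11 ± 0.32. Without the term Socs1 was not called (adjusted p = 0.433). C_CD8 and PDC share batch B alone, where PDC held 9.26 CPM in ITD, against 20.2 CPM in batch A. The value of C_CD8 over PDC without the term was 0.44 (adjusted p = 0.524).

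The remaining members act mainly on receptor tyrosine kinases and are not induced by cytokines in the way of the classical members. Socs5, which has been linked to IL-4 and EGF receptor signalling, lies on chromosome 17 (GRCm38, 87107679 to 87137839, plus strand). It was highest in C_CD8 cells, with 26.8, 36.5 and 38.5 CPM in ITD and 28.3, 35.3 and 36.9 CPM in WT. It was lowest in PDC, with 8.72 and 11.4 CPM in ITD and 13.6 and 13.2 CPM in WT. The 6 C_CD8 values lay above all other libraries. The lower PDC values of ITD did not overlap with those of WT, but were not called (log2 -0.41 ± 0.24, adjusted p = 1, and 0.822 with the pair term). On average over subsets Socs5 was at -0.08 ± 0.10 (adjusted p = 0.924).

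The F test called Socs5 among subsets in ITD (adjusted p = 5.46e-05) and WT (adjusted p = 0.00033), and these calls held when each library was left out in turn. Of all genes, 44.7% were called in ITD and 46.7% in WT. The order of group means in ITD was C_CD8 (33.9 ± 6.27 CPM, n = 3), NC_CD8 (20.04 ± 3.33, n = 3), Esamlo (19.1 ± 1.48, n = 2), Esamhi (16.1 ± 1.23, n = 2) and PDC (10.03 ± 1.86, n = 2). The 3 in the middle were not called apart, while C_CD8 over NC_CD8 (adjusted p = 0.0066) and Esamhi over PDC (adjusted p = 0.0366) were. In WT, C_CD8 (33.5 ± 4.56, n = 3) was called above Esamlo (20.9 ± 2.74, n = 2, adjusted p = 0.0407). The lower neighbours in the WT order, Esamlo, NC_CD8 (19.3 ± 4.75), Esamhi (15.3 ± 0.94) and PDC (13.4 ± 0.27), were not called apart. Over all genes, 19.1% of the tests of subset pairs were called in ITD and 20.1% in WT, and 31.5% and 32.8% with the batch term. For Socs5, 7 of 10 pairs of subsets were called in ITD and 5 of 10 in WT, and with the batch term 5 and 4. The calls lost were those of PDC against subsets with which it shares no batch, namely Esamhi over PDC in ITD (log2 0.26, adjusted p = 0.396) and Esamlo over PDC in ITD (0.51, adjusted p = 0.099) and in WT (0.21, adjusted p = 0.5).

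Socs6, whose product binds the receptor tyrosine kinase KIT, lies on chromosome 18 (GRCm38, 88665224 to 88927481, minus strand). Its group means were highest in PDC, with 42.6 ± 11.95 CPM in ITD and 41.7 ± 9.90 CPM in WT (n = 2 each). They were lowest in Esamhi cells, with 22.8 ± 5.36 CPM in ITD and 22.3 ± 2.39 CPM in WT (n = 2 each). The 8 Esamhi and PDC libraries did not overlap. PDC was called above Esamhi in ITD (adjusted p = 0.0165) and WT (adjusted p = 0.0161), but not with the batch term, and these subsets share no batch.

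The F test gave an adjusted p of 0.0352 in ITD and 0.0386 in WT for Socs6, where 44.7% and 46.7% of all genes were called. Leaving out 1 library at a time ended the call in 4 of 24 cases in ITD and in 8 of 24 in WT, with adjusted p up to 0.147 and 0.139, both without an Esamhi library of batch D. Other genes share 6.14% of its 50-base words. Between genotypes the log2 fold changes of Socs6 ran from 0.02 in C_CD8 to 0.09 in NC_CD8 cells, with an average of 0.05 ± 0.11 (adjusted p = 0.985).

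Socs4, a regulator of EGF receptor levels, was the steadiest member, at 30.6 to 41.9 CPM in ITD libraries and 28.1 to 42.3 CPM in WT libraries. It lies on chromosome 14 (GRCm38, 47276931 to 47296102, plus strand). Socs7, which has been linked to insulin receptor substrates, lies on chromosome 11 (GRCm38, 97362551 to 97398542, plus strand) and was at 11.5 to 22.03 CPM in ITD and 13.2 to 23.6 CPM in WT libraries. The F tests over subsets called neither, with adjusted p of 0.291 to 0.464 and, with the batch term, of 0.0713 to 0.364. Of the pairs of subsets none was called for either gene without the batch term. With it Socs7 was lower in Esamhi than in C_CD8 cells in ITD (log2 -0.72 ± 0.22, adjusted p = 0.0214) and in WT (-0.67 ± 0.22, adjusted p = 0.0252), and lower in Esamhi than in PDC in ITD (-0.82 ± 0.29, adjusted p = 0.0321). Esamhi and PDC share no batch, and without the batch term this last value was -0.46 (adjusted p = 0.267). On average, Socs4 differed between genotypes by a log2 of 0.00 ± 0.07 and Socs7 by -0.03 ± 0.12. Socs7 was lower in ITD in 9 of 12 pairs, with no overlap in Esamhi cells (11.5 and 12.6 CPM in ITD, 13.2 and 13.9 CPM in WT), and was not called there (log2 -0.17 ± 0.30, adjusted p = 1).

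**Figure D4:**
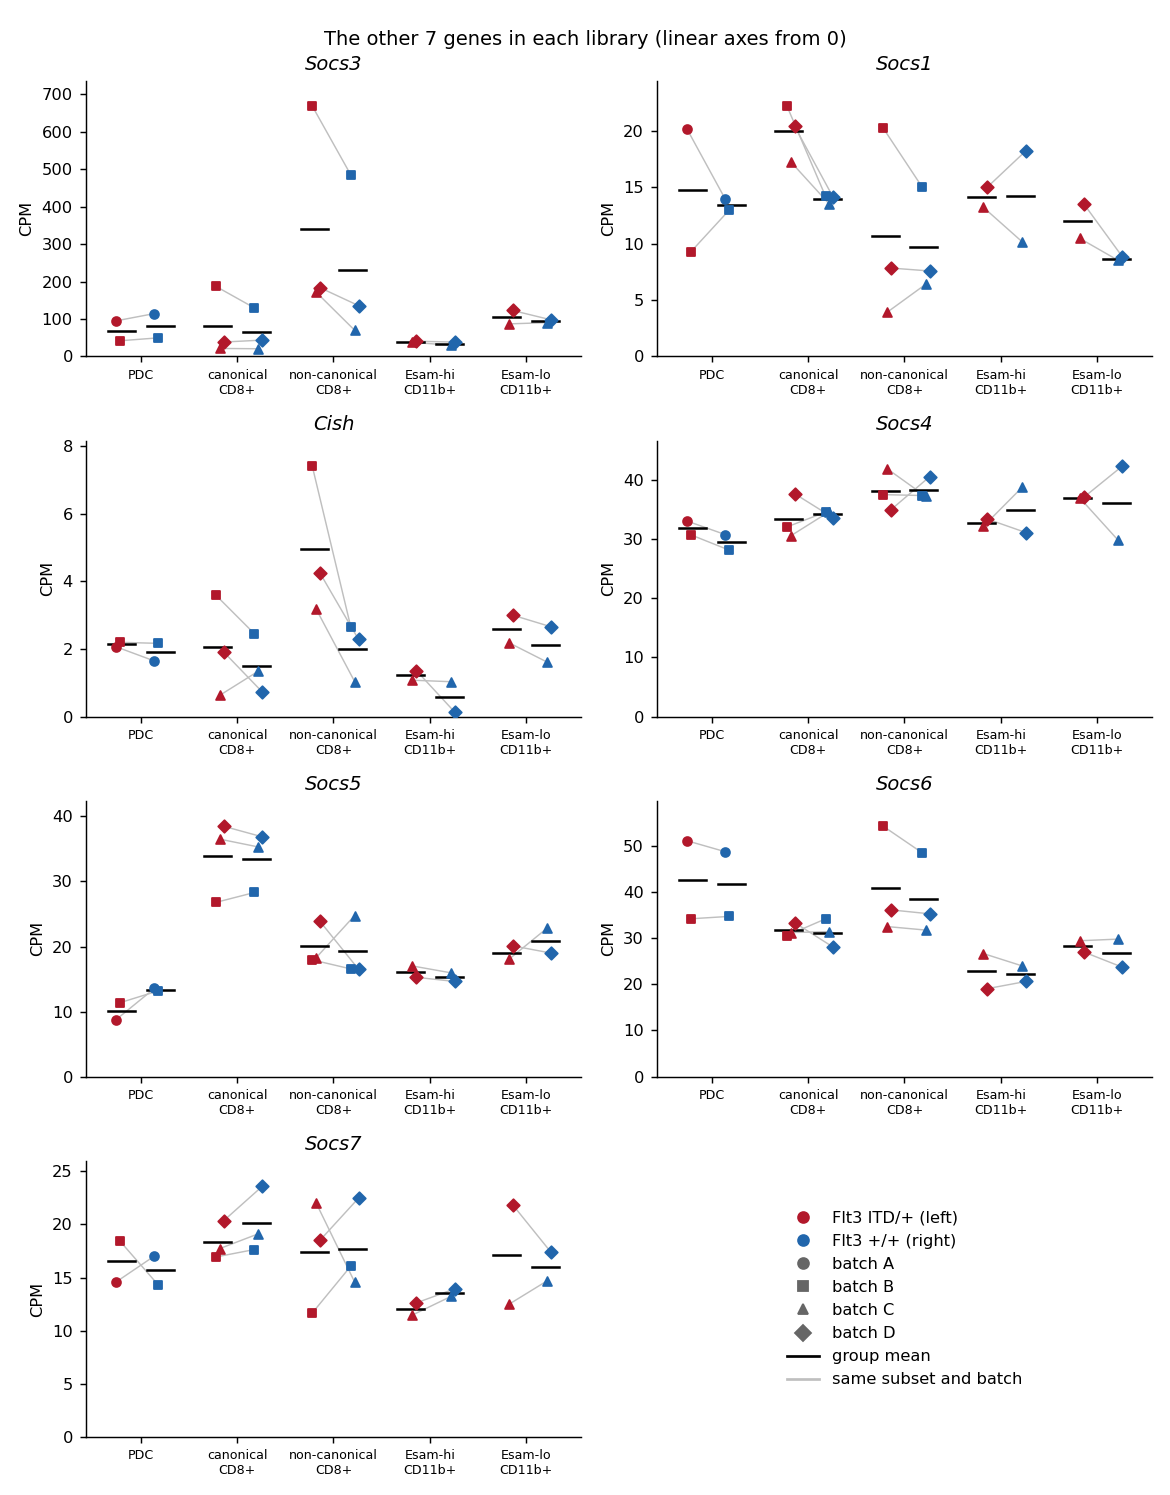
Levels of Socs3, Socs1, Cish, Socs4, Socs5, Socs6 and Socs7 (CPM, linear axes from 0) in each library by subset, Flt3 ITD/+ left and Flt3 +/+ right. Grey lines join libraries of the same subset and batch and black bars are group means. Socs3 reaches 668.5 CPM in batch B of NC_CD8 cells, Socs5 is highest in C_CD8 cells (26.8 to 38.5 CPM), and Socs4 stays between 28.1 and 42.3 CPM.

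Over all libraries, the mean level per kb of exon was 43.2 CPM per kb for Socs3, 5.07 for Socs4, 4.55 for Socs1, 3.31 for Socs5, 2.92 for Socs6, 2.62 for Socs2, 2.31 for Socs7 and 0.341 for Cish. Per kb of the longest annotated transcript, Socs2 moved to 5.89 CPM per kb and from place 6 to place 2 in this order, so the order between Socs3 and Socs7 depends on the transcript assumed.

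The members did not vary as a block. Over the 24 libraries the Pearson r of log2 CPM between members ran up to 0.729, for Cish and Socs3, and down to -0.412, for Socs4 and Socs1. After the group means were subtracted, Socs3 correlated with Socs1 at 0.651, Cish at 0.594 and Socs6 at 0.564, and with Socs5 at -0.716. The libraries share batches, and the summed level of the early response genes had an r of -0.629 with Socs3 after the same subtraction. These correlations describe the libraries.

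Apart from Gm9847, the genes closest to Socs2 over the libraries were Gbp2b (r = 0.721) and Cacnb1 (r = 0.704), well below the pseudogene. For the differences within the 12 pairs, Drd4 (r = 0.921), Zfp414 (r = 0.915), Chn2 (r = 0.903) and Jup (r = 0.899) followed Gm9847 (r = 0.978). The closest genes were Fam160a2 (r = 0.961) and Btla (r = 0.946) for Socs5, Emp1 (r = 0.929), Pofut2 and Fam117b for Socs3, and Trim27 (r = 0.909), Snap29 and Kctd20 for Socs6. For the other members the highest r was between 0.761 and 0.817, with Baiap2, Mxd1 and Ftl1 for Socs1, Gm16725, Fosl1 and Rnf39 for Socs4, Slk, Gm16425 and Golim4 for Socs7, and Clcc1, Acot10 and AA467197 for Cish. These choices depend on the measure. By Spearman's rank correlation, 1 of the 3 closest genes was kept for each of Socs1, Socs3, Socs5, Socs6 and Cish. For the pairs of Socs2, 2 of 5 were kept. Trim27 came at place 131 for Socs6 by that measure.

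The genes around the SOCS proteins differed less between genotypes than Socs2. Averaged over the 5 subsets, 0.332% of all genes were called higher and 0.0276% lower, and 4.49% and 2.34% with the pair term. Of 16 partners in the SOCS-box ligase, none was called with or without the pair term, and their median log2 fold change was 0.00339, against -0.00155 for all genes. With the smallest p of that list, the adaptor Elob was at -0.14 ± 0.10 (adjusted p = 0.772) and the neddylation enzyme Ube2m at -0.11 ± 0.07 (adjusted p = 0.712). All 11 genes of Janus kinases and STAT factors had values above 0, with a median of 0.17, and 1 was called without the pair term and 6 with it. Jak3, the kinase of the shared cytokine receptor chain, was called higher (log2 0.41 ± 0.08, adjusted p = 0.0206; ITD libraries 36.4 to 98.3 CPM, WT 18.7 to 98.9 CPM). Among those called higher with the pair term were Jak2 (0.29 ± 0.04, adjusted p = 0.0017), Stat2 (adjusted p = 0.00297), Tyk2 (adjusted p = 0.0417) and Stat5a (0.17 ± 0.05, adjusted p = 0.0482).

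Of 32 tested receptor genes of cytokines that SOCS proteins restrain, Il13ra1 was called higher (log2 0.65 ± 0.11, adjusted p = 0.0134, higher in 12 of 12 pairs). With the pair term 5 were called higher and 3 lower, in a fit that called 4.49% of all genes higher and 2.34% lower. Il2ra, the alpha chain of the IL-2 receptor, was at 1.47 ± 0.29 (adjusted p = 0.0127, median 4.76 CPM in ITD and 2.25 CPM in WT). The shared chain Il2rg (0.31 ± 0.06, adjusted p = 0.00979) and Il7r (0.69 ± 0.11, adjusted p = 0.00412) were higher as well. Il2rb, the beta chain, was lower (-1.66 ± 0.25, adjusted p = 0.00268), with a median of 3.88 CPM in ITD and 7.53 CPM in WT. NK cells also express Il2rb, and 7 of 10 NK cell markers were called lower with the pair term, whose part was not tested. Of 16 other inhibitors of JAK-STAT signalling, 0 were called, and with the pair term Usp18, which restrains the type I interferon receptor, was called higher (0.69 ± 0.12, adjusted p = 0.00583). Sla2, with the next smallest p of that list, was at -0.64 ± 0.24 (adjusted p = 0.359).

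Of 18 other STAT5 targets, 0 were called without the pair term, where Socs2 had an adjusted p of 1.45e-05. With it 5 were called higher and 1 lower, against 4.49% and 2.34% of all genes. Pim2 (log2 0.39 ± 0.06, adjusted p = 0.00234), Pim3 (0.33 ± 0.05, adjusted p = 0.00268) and the cyclin Ccnd2 (0.51 ± 0.12, adjusted p = 0.0303) were higher, and the cyclin Ccnd1 was lower (-0.44 ± 0.08, adjusted p = 0.00658). Tnfrsf13b and Il2ra were the other 2 called higher. The list's median log2 fold change was 0.13.

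Of 10 STAT3 targets, 0 were called without the pair term and 5 were called higher with it, namely Etv3 (0.30 ± 0.04, adjusted p = 0.0021), Zfp36, Sbno2, Bcl3 and Nfil3. Of 17 early response and handling genes, 0 were called without the pair term and 2 were called higher with it, Zfp36 (0.24 ± 0.05, adjusted p = 0.00973) and Nr4a1 (0.21 ± 0.06, adjusted p = 0.0484). Zfp36 is on both lists. Of all genes, 4.49% were called higher with the pair term. The median log2 fold changes without the pair term were 0.24 for the STAT3 targets and 0.09 for the early response genes.

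**Figure D5:**
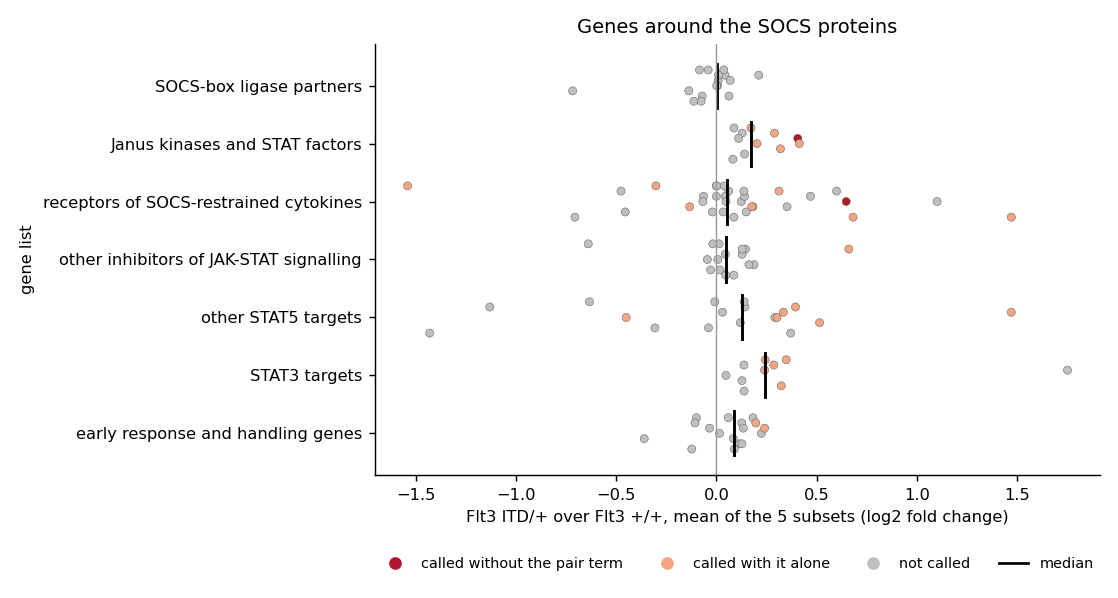
Log2 fold change of Flt3 ITD/+ over Flt3 +/+ averaged over the 5 subsets (horizontal axis) for the tested genes of 7 lists (vertical axis), with black bars at list medians. Dark red points were called without the pair term (Jak3 and Il13ra1), light orange points with it alone, and grey points were not called. List medians run from 0.00 to 0.24.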

How the data were processed

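RNA-seq libraries of sorted mouse splenic dendritic cells were analysed from the raw read counts per gene that the authors deposited. Per the labels' protocols, RNA came from PicoPure columns, in some samples after Trizol, and cDNA from a SMART-seq v4 kit. The submitters' processing notes name the build mm10, DESeq2 1.8.2, bcl2fastq 1.8.4 and Bowtie2. For the counter, annotation and strand setting, nothing is stated in the labels. The counts carry no molecular identifiers, and depth was 11197145 to 22248404 counts.

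Symbols and positions came from GENCODE on GRCm38, which named 37607 of 39017 genes (0.598% of counts unnamed). edgeR 4.0.16 (R 4.3.3) fitted 10 group means to 24 libraries with TMM factors, filterByExpr (minimum count 10) and quasi-likelihood tests, called at an adjusted p under 0.05. Log2 CPM used a prior count of 2. Residual degrees of freedom were 14, and the biological coefficient of variation was 0.317. Alternatives were the pair of subset and batch as a term (7 degrees of freedom, 0.141), the batch as a term (11, 0.174), RLE factors, no filter, DESeq2 1.42.0, single subsets or genotypes, and each library left out. The fit was tested on simulated data.

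The pairing comes from the batch letters. After group means were subtracted, libraries of a pair correlated at r = 0.134 to 0.646 across genes. In PDC, Esamhi and Esamlo, groups hold 2 libraries. There the value with the other batch is the same number with its sign reversed (0.646 and -0.646 in PDC). Both pairs of such a subset therefore give only 1 comparison. In the CD8+ subsets each pair, at 0.198 to 0.526, was above its values with libraries of another batch (up to 0.148). Replicates came from independent experiments per the series' design text, and p-values measure the spread between these libraries. All 8 genes were tested in each comparison. From each list of related genes at most 6 were named, those called on average with or without the pair term by smallest p, or the 2 with the smallest p. The closest genes were the 3 with the highest r (5 for pairs of Socs2). Some results on listed and closest genes are not reported here. The members and lists were chosen with earlier results of these data known. Plots used Python 3.11.15 and matplotlib 3.10.9.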

Additional observations from a re-analysis of the deposited data

Results flagged for a closer look

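The difference of genotypes in Socs2 differed between subsets by some tests of that difference itself. The ITD effect in PDC minus the mean effect of the other 4 subsets was a log2 of 3.88 without the pair term (adjusted p = 0.0219) and 3.83 with it (adjusted p = 0.002). Without the pair term, this call was lost when 1 of 3 PDC libraries was left out (adjusted p = 0.159 to 0.224). Over all 5 subsets the test of any difference gave an adjusted p of 0.00162 with the pair term, but 0.0749 without it. NC_CD8 minus C_CD8 was a log2 of 2.21 with the pair term (adjusted p = 0.0095), and 2.20 and not called without it (adjusted p = 0.475). WT cells of both subsets with the larger log2 effect held little Socs2, with 1.29 CPM in PDC and 3.55 CPM in NC_CD8 cells on average. These levels are the denominators of the ratios, so they are not independent of the effect sizes.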

How the results depend on the processing

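The calls of Socs2 in PDC, in NC_CD8 cells and on average were kept under RLE factors, no filter, DESeq2, the pair term, the sum with Gm9847 and each library left out (log2 4.98 to 5.87, 2.64 to 3.29 and 2.26 to 2.51). In fits to a single subset, 0 members were called in PDC (Socs2 log2 5.49, adjusted p = 1) or in NC_CD8 cells (Socs2 log2 2.93, adjusted p = 0.112), which have 4 and 6 libraries. The counts of members called went from 1 to 2 in NC_CD8 cells, from 0 to 1 in Esamlo cells and from 0 to 1 for NC_CD8 minus C_CD8 with the pair term. That fit called 4.79%, 0.0497% and 0.647% of all genes, in the same order. The test of any difference of the ITD effect called 1 member with the pair term, without a filter (adjusted p = 0.0124) and with DESeq2 (7.5e-08), and 0 to 1 with a library left out. For PDC minus the others this range was also 0 to 1. Socs3 in NC_CD8 cells ranged from a log2 of -0.38 to 1.73 with a library left out. Over ITD subsets 3 of 8 members were called, 6 with the batch term, 1 in the ITD libraries alone, and 1 to 4 with a library left out. Of all genes, 44.7% were called over ITD subsets, and 62.4% with the batch term. Over the pairs of subsets, of 80 tests per genotype, calls were 10 in ITD and 14 in WT, and 23 and 22 with the batch term. In ITD they were 6 to 12 when a library was left out. Over all genes, 19.1% of such tests were called in ITD and 20.1% in WT, and 31.5% and 32.8% with the batch term. The cause of these changes with the processing was not tested. Groups held 2 or 3 libraries, and Cish had 2 to 120 reads per library.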
